A study of Xerophyta schlechteri with 51 samples.

Results

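The first loss of water was followed in senescent tissue (ST) of Xerophyta schlechteri, a resurrection plant whose leaf blades can dry almost completely and recover when watered. The comparison set the 3 ST libraries labelled 75% relative water content (RWC, leaf water expressed against the fully hydrated state) against the 3 ST libraries at full turgor. These are 6 of 51 RNA sequencing libraries, chosen by their tissue and stage labels alone. The same step in non-senescent tissue (NST), with 3 libraries at 75% RWC and 3 at full turgor, served as the comparison. The remaining libraries hold ST and NST at 55%, 35% and <10% RWC and 48 h after rehydration, and pre-senescent tissue (PST) at 75% RWC and every later stage, with 3 libraries in each group. All groups are leaf blades of the same species, no treatment other than drying and rewatering is labelled, and no line, transgene or age is given. The label that carries the water content is marked as that of the NST, so the water content of the ST itself at this stage is not given. No label ties a library to a plant of its own, so p-values measure no more than the spread among these libraries, some of which can be technical.

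Resurrection plants survive the air-dry state as whole leaves. In Xerophyta, drying leaves dismantle chlorophyll and thylakoids and switch off photosynthesis, and they build up protective molecules such as late embryogenesis abundant proteins, small heat shock proteins and sucrose. Leaf senescence is a separate programme of dismantling, in which chloroplasts, proteins and RNA are broken down and nutrients are exported. In Xerophyta older tissue, such as the leaf tip, can senesce on drying while the rest of the blade recovers. The deposited table gives gene IDs without names or annotation, so neither programme could be looked up by its genes here. No tissue marker could be checked, and genes are described by their ID, abundance and behaviour. In RNA from whole tissue, fewer cells of a type and less RNA per cell cannot be told apart.

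Expression is given as FPKM (fragments per kilobase of transcript, relative to library size). The ST libraries at 75% RWC had between 14980 and 15383 entries of at least 1 FPKM, against 15846 to 16157 in ST at full turgor. The groups did not overlap, and the mean was lower by 848 entries at 75% RWC (exact two-sided permutation test, p = 0.1, the smallest that 3 against 3 libraries can give). The table holds no counts. From the steps of low values, relative depth was 0.83, 1.05 and 1.05 in the ST libraries at 75% RWC and 0.949, 1.04 and 1.24 in those at full turgor. These values are scaled to a geometric mean of 1 over the 12 ST and NST libraries of these stages, and the ranges of the groups overlapped. A library of each ST group stood somewhat apart. Replicate 0 at 75% RWC correlated with its 2 partners at r = 0.893 and 0.912 across genes, while these correlated at 0.934 with each other. Replicate 0 at full turgor was the one most like the drying libraries. Its correlation with them was 0.697, 0.83 and 0.755 for replicates 0, 1 and 2, against 0.611 to 0.741 for the other 2 libraries at full turgor.

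The question of the comparison was which transcripts of senescing tissue respond by the first labelled stage of drying. A large part of the transcriptome changed. Of 18717 genes tested, 2813 were higher and 3721 lower in ST at 75% RWC than in ST at full turgor (limma, Benjamini-Hochberg adjusted p under 0.05), which is 15% and 19.9% of the genes tested and 34.9% together. Among the risen genes the median log2 change was 1.49, and the middle 80% lay between 0.78 and 3.59. Among the fallen genes the median was -1.53, and the middle 80% lay between -3.38 and -0.80. The standard error of a gene's change had a median of 0.37. Changes are differences of log2(FPKM + 1), which understates the change of genes at low level.

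Large changes were common at this first labelled stage of drying. At a log2 change of at least 1, a doubling or a halving, 2134 genes were higher and 2946 lower. At a log2 change of at least 3 the counts were 425 and 524, and at a log2 change of at least 6 they were 56 and 38. The libraries of the 2 groups did not overlap in 9371 of the genes tested (50.1%, with 22.6% higher and 27.4% lower), against 41.7% for the same step in NST. Of the risen genes, 2708 had all 3 libraries at 75% RWC above all 3 at full turgor, and of the fallen genes 3559 had them all below. In 1035 risen and 1442 fallen genes the gap between the nearest libraries of the 2 groups was itself at least 1 on the log2 scale. Calling genes by p-value favours such separation, and the gap was counted among called genes only, so it has no background. Without ST at 75% RWC replicate 0 the counts were 1816 higher and 2726 lower, and without ST at full turgor replicate 0 they were 2475 and 3301. With only these 6 libraries in the fit they were 2499 and 3250.

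The lean towards lower genes depended on the kind of scaling. Scaling each library by 1 factor, from median ratios, left it in place. Limma then called 2838 genes higher and 3710 lower, with 43.3% of those called higher. Quantile normalization, which forces 1 common distribution on the libraries, moved the median log2 change of all genes by 0.12, from -0.08 without it to 0.04. It then called 3572 genes higher and 3562 lower. The share of higher genes among those called was 50.1% with it and 43.1% without it.

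**Figure D1:**
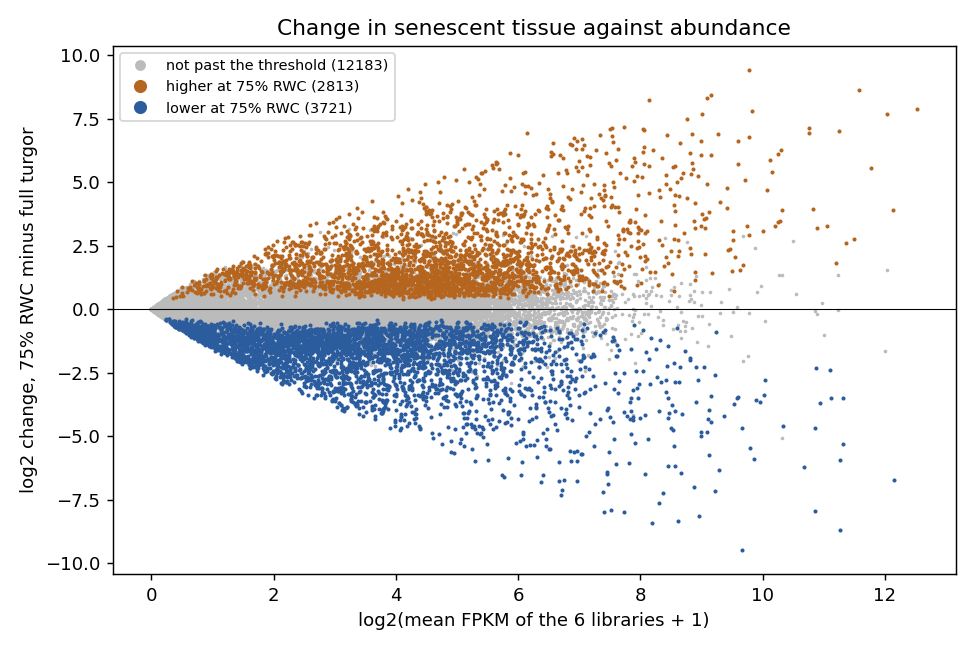
Each point is 1 of 18717 genes; the horizontal axis gives log2(mean FPKM of the 6 ST libraries + 1) and the vertical axis the log2 change in ST, 75% RWC minus full turgor. Brown points are the 2813 genes higher and blue points the 3721 genes lower at 75% RWC (limma, adjusted p under 0.05), and grey points did not pass; risen genes crowd towards the abundant end.

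Risen and fallen genes were not equally abundant. Among the 968 genes with a mean above 100 FPKM over the 6 libraries, 37.9% rose and 23.5% fell. Among the 4738 genes between 20 and 100 FPKM, 24.7% rose and 17.9% fell. The order turned at lower levels. Between 5 and 20 FPKM, 13.6% of 6394 genes rose and 20.3% fell, and between 1 and 5 FPKM, 8.29% of 4332 genes rose and 23.7% fell. The median change of all genes in the class was 0.53 above 100 FPKM and -0.24 between 1 and 5 FPKM. Adding 1 to FPKM narrows the change of the lowest classes.

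The most abundant transcripts were largely exchanged. Of the 50 genes with the highest mean in ST at 75% RWC and the 50 with the highest mean in ST at full turgor, 10 were the same. Among the 50 of the 75% stage, 35 had risen and 0 had fallen, while among the 50 of full turgor 1 had risen and 36 had fallen. These lists were drawn from the libraries compared, which favours such a pattern, and the background is 15% risen and 19.9% fallen. In NST, whose libraries did not enter the choice, 35 of the 50 genes of the 75% stage rose and 0 fell at 75% RWC. Of the 50 genes of full turgor, 1 rose and 31 fell in NST, against 10.8% and 16.2% of all genes tested. All genes tested are a loose background for abundant genes, since in ST 37.9% rose and 23.5% fell above 100 FPKM. Same-numbered ST and NST libraries also deviated together at these stages (r = 0.507 to 0.746), so the NST reading is not fully separate.

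The exchange was also seen in the pool as a whole. The 2813 risen genes made up 54.2%, 47.9% and 54.1% of the summed FPKM in the ST libraries at 75% RWC, against 12.6%, 9.45% and 8.49% at full turgor. The 3721 fallen genes made up 3.71%, 8.24% and 6.3% at 75% RWC, against 40.4%, 44.2% and 44.9% at full turgor. The lists were chosen on these libraries. In NST, which had no part in the choice, the genes that rose in ST held 38.2%, 40.2% and 53.6% of the pool at 75% RWC and between 7.52% and 9.84% at full turgor. The genes that fell in ST held between 8.44% and 13.1% of the NST pool at 75% RWC and between 42.6% and 49% at full turgor. The NST groups overlapped in neither list, though same-numbered ST and NST libraries deviated together (r = 0.507 to 0.746). Dominance by a few transcripts changed less. The 10 highest entries held 10.4% ± 2 of the summed FPKM in ST at 75% RWC and 9.53% ± 0.98 at full turgor (SD, n = 3 each, exact two-sided permutation test, p = 0.6).

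**Figure D2:**
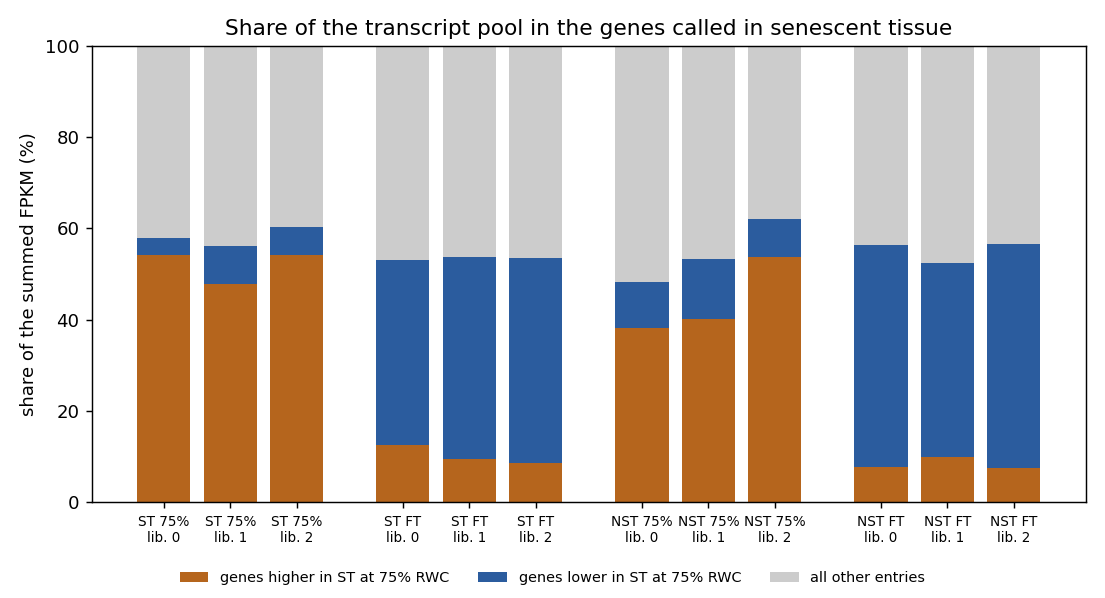
Each bar is a library, and its segments give the share of the summed FPKM (%) in genes higher in ST at 75% RWC (brown), in genes lower there (blue) and in all other entries (grey), for ST and NST at 75% RWC and at full turgor (FT). Brown fills 47.9% to 54.2% of the ST libraries at 75% RWC and 8.49% to 12.6% of those at full turgor, and the NST libraries show the same exchange.

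The genes with the largest changes ran through several orders of magnitude. They are the 2 largest rises and the 2 largest falls among genes above 0 in all 6 ST libraries, with groups that did not overlap and a mean of at least 10 FPKM in the higher group. Xvis03_205230 stood at 5756.66, 3561.89 and 8833.83 FPKM in ST at 75% RWC, against 105.7, 3.61 and 4.85 FPKM at full turgor. All 3 drying libraries were far above the hydrated ones, and replicate 0 at full turgor was raised above its partners. The log2 change was 8.64 (SE 0.92; limma, adjusted p = 2.59e-09). It was 10.09 without that replicate, and 7.82 and 8.00 without replicates 1 and 2 at full turgor.

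Xvis03_223441 stood at 1566.63, 384.11 and 1475.27 FPKM in ST at 75% RWC, against 8.46, 0.58 and 0.41 FPKM at full turgor. Replicate 1 was the lowest of the drying libraries, and replicate 0 again the highest at full turgor. The log2 change was 8.44 (SE 1.06; limma, adjusted p = 6.33e-08). It was 9.11 without replicate 1 at 75% RWC and 9.33 without replicate 0 at full turgor.

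Among the falls, Xvis03_223144 dropped out of the most abundant transcripts. It stood at 3.55, 74.4 and 2.81 FPKM in ST at 75% RWC, against 7636.03, 3894.71 and 3230.05 FPKM at full turgor. Replicate 1 kept the most of it and was still far below the hydrated libraries. The log2 change was -8.71 (SE 1.18; limma, adjusted p = 2.79e-07). It was -10.10 without replicate 1 at 75% RWC, and -8.08 and -7.95 without replicates 0 and 2 of that group.

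Xvis03_208703 was the most even of these genes. It stood at 1.88, 1.71 and 0.81 FPKM in ST at 75% RWC, against 759.97, 774.93 and 813.59 FPKM at full turgor. Within each group its libraries lay close together. The log2 change was -8.34 (SE 0.69; limma, adjusted p = 1.33e-11).

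**Figure D3:**
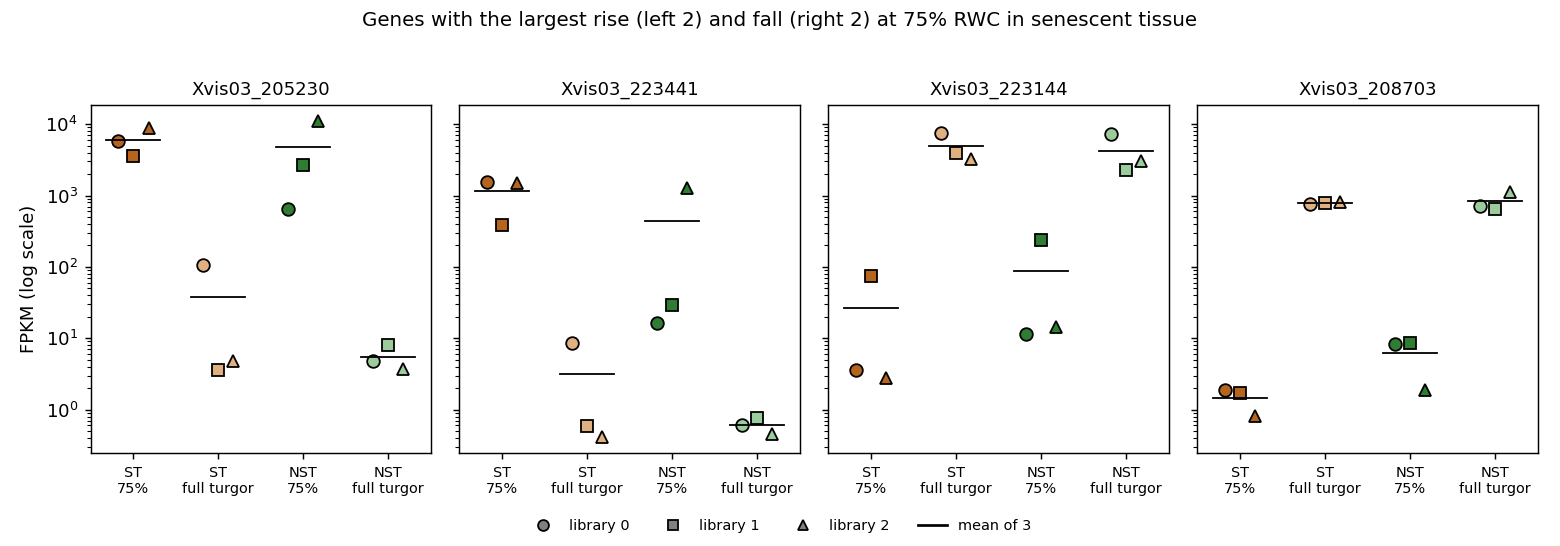
FPKM on a log axis of Xvis03_205230, Xvis03_223441, Xvis03_223144 and Xvis03_208703 in ST at 75% RWC, ST at full turgor, NST at 75% RWC and NST at full turgor; each symbol is a library, its shape the replicate number, and the bar the mean of 3. The 4 genes were chosen to have ST groups that do not overlap, and Xvis03_205230 in ST at full turgor runs from 3.61 to 105.7 FPKM.

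Few genes switched between a listed 0 and expression. Of the genes tested, 31 were listed at 0 in all 3 ST libraries at 75% RWC and had at least 1 FPKM in all 3 at full turgor, and 1 gene showed the reverse. A listed 0 may also stand for an estimate that failed. At a level of at least 10 FPKM there was 1 gene of each kind, named here after their values were seen. Xvis03_203361 stood at 92.47, 75.39 and 250.41 FPKM in ST at 75% RWC and was listed at 0 in all 3 ST libraries at full turgor (limma, adjusted p = 8.77e-06). Xvis03_218310 was listed at 0 in all 3 ST libraries at 75% RWC and stood at 33.85, 146.58 and 49.38 FPKM at full turgor (limma, adjusted p = 0.000685).

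The replicates at 75% RWC were not equally far along. Among the risen genes replicate 0 was the highest of the 3 drying libraries in 63.4%, replicate 1 in 15.1% and replicate 2 in 21.5%. Among the fallen genes replicate 0 was the lowest in 59% and replicate 1 in 12.2%. At full turgor, replicate 0 was the highest of the hydrated libraries in 58.9% of the risen genes and the lowest in 47.3% of the fallen genes. To place each library on a scale that ST did not set, genes were taken from NST at <10% RWC against NST at full turgor. By limma, 51.8% of the genes tested differed there, with 22.2% higher and 29.6% lower, and 3199 genes were higher and 4466 lower by at least 1 on the log2 scale. Their median level is given relative to the mean of NST at full turgor.

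On that scale the ST at 75% RWC had covered a large part of the way to the dry leaf. The genes that rise in dry NST stood at 1.55, 1.00 and 1.41 in the ST libraries at 75% RWC, against 0.17, 0.04 and 0.01 in ST at full turgor. Dry NST, which set the list, stood at 1.95, 1.90 and 1.81. The genes that fall in dry NST stood at -1.63, -1.20 and -1.55 in ST at 75% RWC, against -0.20, -0.11 and -0.04 in ST at full turgor and -2.01, -1.92 and -1.94 in dry NST. Replicate 1 was the least advanced of the drying ST libraries on both sets, and replicate 0 at full turgor the most advanced of the hydrated ones. The ST groups did not overlap on either set (exact two-sided permutation test, p = 0.1 for each, the smallest possible). Of the 3199 genes, 2029 (63.4%) also rose in ST at 75% RWC and 0 fell. Of the 4466 genes, 2965 (66.4%) also fell and 0 rose. The background is 15% and 19.9%. The dry NST comparison shares no library with the ST one, though same-numbered ST and NST libraries at full turgor deviated together (r = 0.676 to 0.746).

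NST labelled with the same water content stood less far along that scale. The rising set stood at 1.55 in ST replicate 0 against 0.62 in NST replicate 0, at 1.00 against 0.60 in replicates 1 and at 1.41 against 1.28 in replicates 2. The falling set stood at -1.63 against -0.95, at -1.20 against -1.01 and at -1.55 against -1.46. ST was the further along in 3 of 3 such pairs on both sets, and the ranges of ST and NST overlapped. These are levels, and the start of each tissue was not subtracted. At full turgor the falling set stood at -0.20, -0.11 and -0.04 in ST, against -0.02, -0.05 and 0.07 in NST. For number 2 this offset was at least as large as the gap at 75% RWC, so a larger change in ST is not shown there. Since the stage is named by the water of the NST, less water in the ST cannot be told apart from a stronger response to the same water.

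**Figure D4:**
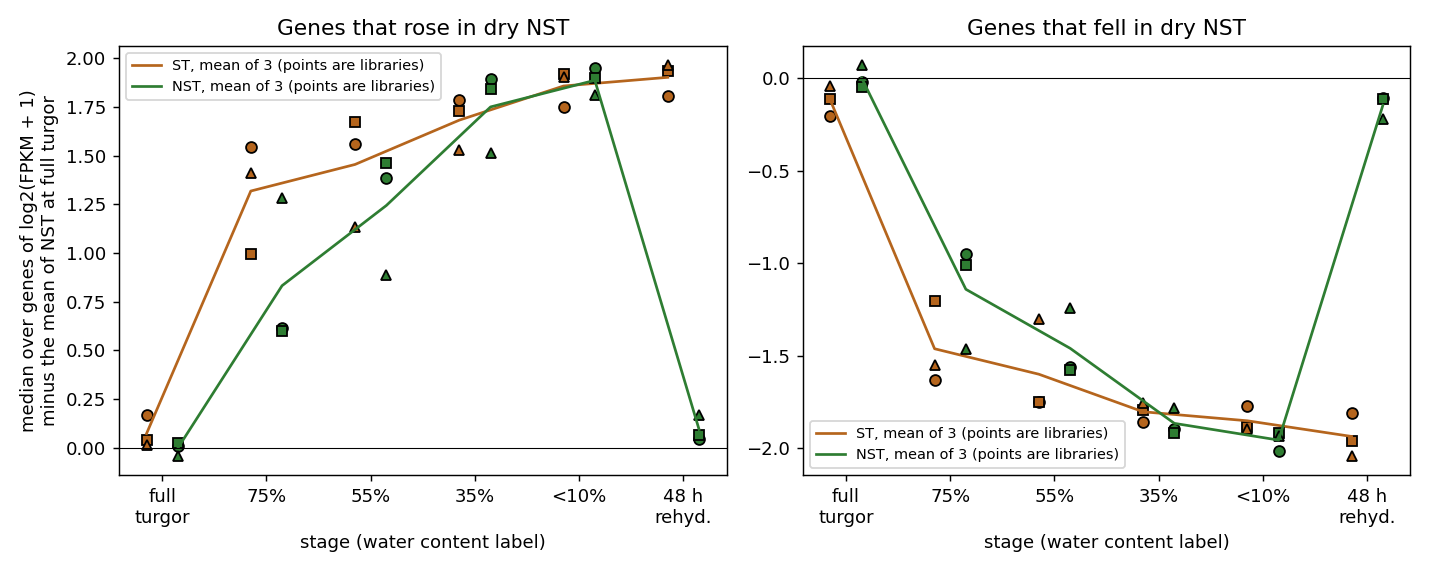
Median level of the genes that rose (left) and fell (right) in dry NST, as log2(FPKM + 1) minus the mean of NST at full turgor, for each ST (brown) and NST (green) library by stage; symbol shapes are replicate numbers and lines join means of 3. ST at 75% RWC lies between 1.00 and 1.55 on the rising set, against 0.60 to 1.28 in NST, and ST stays high after rehydration where NST returns.

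Whether the tissues responded differently to the first water loss was tested directly. The change had the same sign in both tissues in 78.1% of genes. NST had 2023 genes higher and 3027 lower at 75% RWC than at full turgor (limma, 27% of the genes tested together). Of the genes that rose in ST, 1432 also rose in NST, which is 50.9% of the ST list and 70.8% of the NST list. Of those that fell in ST, 2371 also fell in NST, which is 63.7% and 78.3%. The background in NST is 10.8% and 16.2%, and 0 genes were called in opposite directions. Across the 18717 genes, which are not independent, the changes in ST and NST correlated at a Pearson r of 0.857 and a Spearman rho of 0.773. These comparisons share no library, but same-numbered ST and NST libraries deviated together at 75% RWC as well (r = 0.507 to 0.715).

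Genes called in ST alone mostly leaned the same way in NST. There were 1381 such genes among the risen, with a median change of 1.23 in ST and 0.42 in NST. Of them, 1238 (89.6%) were above 0 in NST. Among the fallen there were 1350, with medians of -1.26 and -0.57, and 1202 (89%) were below 0 in NST. The background is the 78.1% of all genes tested with the same sign in both tissues. Same-numbered ST and NST libraries deviated together, which can add to such agreement. The median size of change over all genes, whatever its sign, was 0.65 in ST and 0.52 in NST.

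The difference in response, the ST change minus the NST change, passed the threshold in 7 genes (0.0374% of those tested, limma), and in 1453 at an unadjusted p under 0.05. All 7 differences were positive, from genes that fell in both tissues. At 75% RWC they stood between 0 and 0.11 FPKM in ST and between 0 and 0.18 FPKM in NST. At full turgor they stood between 0.18 and 10.06 FPKM in ST and between 2.97 and 29.51 FPKM in NST. Both tissues were near 0 at 75% RWC. In each of the 7 genes, all 3 ST libraries at full turgor lay below all 3 NST ones. The named genes did not pass, with ST minus NST at -0.09 in Xvis03_205230 (limma, adjusted p = 0.996), 2.68 for Xvis03_223441 (limma, adjusted p = 0.662), -2.02 for Xvis03_223144 (limma, adjusted p = 0.793) and -1.37 for Xvis03_208703 (limma, adjusted p = 0.743). Xvis03_223441 stood at 16.36, 28.92 and 1258.59 FPKM in NST at 75% RWC, so the NST libraries were themselves far apart.

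Same-numbered libraries of the tissues deviated together within a stage. With stage and number as a block, a fit chosen after that was seen, 594 genes had a more positive and 693 a more negative change in ST than in NST (limma, 3.17% and 3.7% of those tested, 6.88% together). The genes were chosen for this difference, so their changes are a description. The 594 genes had a median change of 1.13 in ST and -0.22 in NST. Without the block, 304 of them rose and 66 fell in ST (15% and 19.9% of all genes tested), and 20 rose and 144 fell in NST (10.8% and 16.2%). The 693 genes had a median change of -0.85 in ST and 0.53 in NST. Of these, 45 rose and 283 fell in ST, and 167 rose and 46 fell in NST. The lists depended on single pairs of libraries. Without the libraries numbered 0 at 75% RWC the blocked total of 1287 was 21, and without numbers 0, 1 and 2 at full turgor it was 182, 448 and 294. Without number 2 at 75% RWC it was 1977, and without number 1 it was 1102. The 4 named genes did not pass with the block either. In that fit the limma adjusted p was 0.969 for Xvis03_205230, 0.0773 for Xvis03_223441, 0.129 for Xvis03_223144 and 0.329 for Xvis03_208703.

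**Figure D5:**
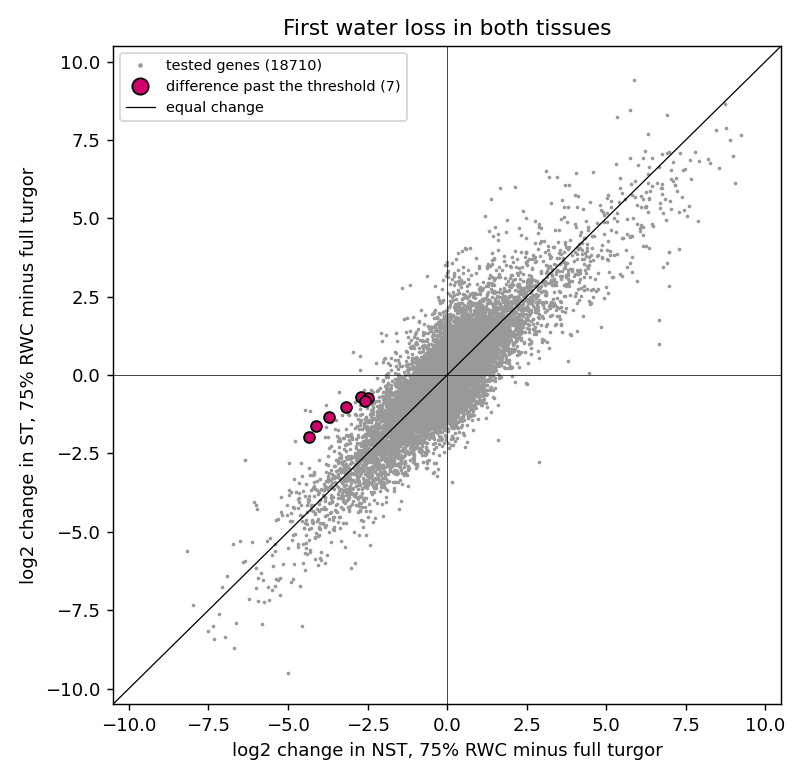
Each grey point is a gene, with the log2 change in NST (horizontal) and in ST (vertical), 75% RWC minus full turgor; the diagonal marks equal change. Points follow the diagonal (Pearson correlation 0.857), and the 7 genes whose difference passed the threshold (large points) lie below 0 in both tissues.

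Few genes were called at the next stage of drying in ST. Between 55% and 75% RWC limma called 0 genes higher and 1 lower (0.00534% of those tested), with 98 higher and 127 lower at an unadjusted p under 0.05. The root mean square log2 difference of the group means was 0.37, against 1.41 for the step from full turgor to 75% RWC. The root mean square expected from replicate error alone was 0.519 for the later step and 0.467 for the earlier one. The later step thus lay within the spread of the replicates, which does not show that the stages were alike. The same held in NST, where the later step was 0.508 against 0.538 from replicate error, after a first step of 1.32. The 1 gene called, named after its values were seen, was Xvis03_219852. It was listed at 0 in all 3 ST libraries at 55% RWC and stood at 6401.53, 5942.21 and 12728.3 FPKM at 75% RWC (limma, adjusted p = 3.52e-17). It returned to between 10111.1 and 15718.1 FPKM at 35% RWC. It was listed at 0 in every library of 5 groups of 3 and above 0 in all others, a pattern that a failed estimate can give. At full turgor it stood at 167.87, 18.13 and 16.73 FPKM, and its rise to 75% RWC was 7.67 on the log2 scale (SE 0.65; limma, adjusted p = 2.1e-11).

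The genes that rose by at least 1 in ST at 75% RWC stayed high in ST. Their median level as log2(FPKM + 1) was 3.43, 2.98 and 2.89 at full turgor, 5.61, 4.96 and 5.20 at 75% RWC, and 5.24, 5.46 and 5.11 at 55% RWC. It was 5.69, 5.73 and 5.51 at <10% RWC and 5.09, 5.12 and 5.29 after 48 h of rehydration. The genes that fell by at least 1 stood at 3.90, 4.04 and 4.17 at full turgor and at 1.48, 2.24 and 1.81 at 75% RWC. They stood at 1.54, 1.34 and 1.39 at <10% RWC and between 1.29 and 1.82 after rehydration. The lists were chosen on the full turgor and 75% RWC libraries, so only the later levels are free of that choice. In NST, rehydrated leaves returned the risen set to 2.82, 2.84 and 3.08, against 2.74 to 3.00 in NST at full turgor.

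The named genes were followed through the same stages. Xvis03_205230 stood between 14781.7 and 31410 FPKM in ST at <10% RWC and between 17521.4 and 36479.3 FPKM in rehydrated ST. In rehydrated NST it stood at 102.05, 153.67 and 314.38 FPKM. Xvis03_223441 likewise stood between 2040.5 and 4084.53 FPKM in rehydrated ST, against 26.03 to 52.04 FPKM in rehydrated NST. Xvis03_208703, which had fallen to at most 1.88 FPKM in ST at 75% RWC, was listed at 0 in all 3 libraries of dry and of rehydrated ST. It was also low in rehydrated NST, at 0.34, 1.03 and 28.13 FPKM, and so did not return there as most fallen genes did. Xvis03_223144 stayed between 6.07 and 30.38 FPKM in rehydrated ST, while rehydrated NST held between 1725.13 and 5068.85 FPKM of it.

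Libraries outside the comparison were read for the same genes. In NST, from <10% RWC to rehydration, 2233 of the 2813 genes that had risen in ST fell, which is 79.4% against a background of 23.8%, and 17 rose. Of the 3721 that had fallen in ST, 2986 rose, which is 80.2% against a background of 30.7%, and 21 fell. In PST, from 75% to <10% RWC, 1010 of the genes risen in ST rose and 144 fell, which is 35.9% and 5.12% against a background of 12.6% and 13.1%. Of the genes fallen in ST, 74 rose and 1024 fell in PST, which is 1.99% and 27.5%. PST and ST libraries of the same number deviated together at 75% RWC (r = 0.611 to 0.795), so the PST reading is not fully separate. Its total of 4813 genes (25.7%) was 2664 and 2555 without PST at 75% RWC replicates 0 and 1, and 810 with only the PST groups in the fit.

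PST, which has no group at full turgor here, lay between ST and NST at 75% RWC for numbers 0 and 2, and beyond NST on the side of full turgor for number 1. The genes that rose by at least 1 in ST had a median level of 5.61, 4.96 and 5.20 in ST at 75% RWC. The level was 4.80, 4.31 and 5.02 in PST and 4.36, 4.35 and 4.92 in NST at that stage. Of the genes that fell by at least 1 in ST, the median level was 1.48, 2.24 and 1.81 in ST, 2.22, 2.76 and 1.97 in PST and 2.63, 2.64 and 2.06 in NST. ST at 75% RWC entered the choice of these genes, which favours its values. Between PST and NST, which did not, the risen set was higher in PST for numbers 0 and 2 and lower for number 1.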

How the data were processed

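RNA sequencing libraries of leaf blades passed through TopHat, Bowtie2 and Cuffdiff, as named in the submitters' processing notes; for versions and genome build the sources used here give nothing. The authors deposited 1 table of FPKM values with 2 decimals and 51 library columns, named by group and by a number 0, 1 or 2. It has 21815 entries with 21282 different IDs, each entry kept as a gene, and pairs no ID with a name, so no gene list could be used. Genes with at least 1 FPKM in at least 3 libraries were kept (18717). Values were taken as log2(FPKM + 1) and fitted in limma 3.58.1 (R 4.3.3) with 1 mean per group over all 51 libraries and a variance trend (34 residual degrees of freedom). All limma tests were two-sided, adjusted by Benjamini-Hochberg over all genes at a threshold of 0.05, and the scripts were tested on simulated data. Depth was estimated from the commonest ratio of low values (0.05 to 0.6 FPKM) in 66 pairs of libraries. The estimates met within 0.05 on the log2 scale in 98.5% of them. Counts are not known, so absolute depth is unknown. Named genes are the 2 largest rises and falls under the conditions given with them, and IDs chosen otherwise are marked. Across ST stages, libraries of the same number did not deviate together in every pair (r = 0.07, -0.06 and 0.27), so the number was not used to pair full turgor with 75% RWC. Within a stage it paired the tissues, with r between 0.507 and 0.746 for ST and NST. The main fit took all 51 libraries as independent, so its degrees of freedom are likely overstated and its p-values for steps within a tissue too small. For the ST minus NST difference it also left in the deviation that same-numbered libraries share, which can make p-values too large. There limma called 7 genes without the block of stage and number and 1287 with it. The members, lists and tests were chosen with earlier results of these data known. Alternatives were another pseudocount, filters, scalings, library weights, a replicate block, only the compared groups, and leaving out each library.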

Additional observations from a re-analysis of the deposited data

Results flagged for a closer look

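The response to the first water loss differed between ST and NST past the threshold in 7 genes, by a test of the difference itself (limma, adjusted p under 0.05). Their differences ran in 1 direction, and all 7 fell in both tissues. Their levels at full turgor lay between 0.18 and 10.06 FPKM in ST and between 2.97 and 29.51 FPKM in NST. Gene by gene, all 3 ST libraries at full turgor lay below all 3 NST ones. At 75% RWC no ST or NST library exceeded 0.18 FPKM for these genes. All 7 were also called with stage and number as a block. The part that low level or a single library plays was not tested beyond the counts given with the alternatives.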

How the results depend on the processing

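The ST comparison of 75% RWC with full turgor called 6534 genes, and between 5749 and 8129 under the 8 alternatives other than leaving out a library. The replicate block, with the column number as a factor, gave 6891, and under it the 4 named genes still passed. Leaving out each of the 6 libraries gave 4542 to 6523. The 4 named genes kept their direction and passed under all 14 alternatives, with the largest adjusted p = 0.00385 in limma with only the compared groups. They were chosen for the largest changes past the threshold in these same libraries, which favours that outcome in advance. The difference between ST and NST (7 genes) was 0 in limma when the pseudocount was 0.1, when the filter was 5 FPKM and when no other groups entered (1394, 1270 and 1817 genes at an unadjusted p under 0.05). It was 15 with no filter, 4 after quantile normalization, 659 with library weights and 1287 with the block of stage and number. It ranged from 0 to 19 when a library was left out, with 5 when NST at full turgor replicate 0 was dropped. Dropping NST at full turgor replicate 1 gave 19, and dropping ST at full turgor replicates 2 and 1 gave 11 and 2, the last both negative. It was 0 without any other of the 12 libraries (689 to 2329 genes at an unadjusted p under 0.05 in limma). The step in NST (5050 genes) was 7637 with library weights. The PST step (4813 genes) was 810 with only the compared groups and 2555 to 5728 leaving out a library. The level of the falling NST set in ST at 75% RWC was -1.91 with a pseudocount of 0.1, in place of -1.46. At the lowest FPKM a step of 1 fragment is a large part of the value. Precision was not compared between levels of abundance.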
